A study of Mus musculus with 3 samples.

Results

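ATP-binding cassette (ABC) genes were examined in the neocortex of 3 wild-type mice of the outbred CD1 stock at postnatal day 13, each animal on its own array. The members were all genes whose probe set carries a single gene symbol made of "Abc", a subfamily letter from a to g, a number and at most one further letter. This rule, which uses no measured value, found 42 genes among 14806 with a probe set of their own, and each of the 42 was read by 1 probe set. The animals form a single group with no treated, mutant or other-tissue arm, so the data give levels and their spread between animals.

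ABC proteins bind and hydrolyse ATP at paired nucleotide-binding domains, and most of them use that energy to move a substrate across a membrane. In brain they are known for loading cholesterol onto apolipoproteins, for pumping drugs out of capillary endothelium, and for importing very long chain fatty acids into peroxisomes. Subfamilies E and F keep the ATP-binding domains but have no membrane-spanning part and act on ribosomes instead.

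The stretches before the gene starts are shown for neighbouring pairs of close relatives whose levels are set side by side below, and for Abca1, the best known cholesterol exporter. Abcb1a and Abcb1b both encode P-glycoprotein, the multidrug pump, and Abca8a and Abca8b are adjacent lipid transporters. Each sequence is the 250 bases before the annotated start in RefSeq build GRCm38.p6, read along the gene's strand, with every CG pair in capitals. Abcb1a lies at chr5:8566841-8567090 and Abcb1b at chr5:8797897-8798146 on the plus strand, and Abca8a at chr11:110095938-110096187, Abca8b at chr11:109995846-109996095 and Abca1 at chr4:53159896-53160145 on the minus strand.
Abcb1a: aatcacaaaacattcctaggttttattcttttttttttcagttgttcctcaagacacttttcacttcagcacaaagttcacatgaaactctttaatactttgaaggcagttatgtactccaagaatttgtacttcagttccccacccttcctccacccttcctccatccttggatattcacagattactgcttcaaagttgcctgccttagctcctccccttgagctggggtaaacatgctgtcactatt
Abcb1b: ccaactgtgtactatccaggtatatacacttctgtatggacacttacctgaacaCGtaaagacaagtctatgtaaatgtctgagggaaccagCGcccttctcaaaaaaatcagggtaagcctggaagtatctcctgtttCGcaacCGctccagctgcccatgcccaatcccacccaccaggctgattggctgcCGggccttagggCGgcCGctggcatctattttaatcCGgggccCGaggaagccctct
Abca8a: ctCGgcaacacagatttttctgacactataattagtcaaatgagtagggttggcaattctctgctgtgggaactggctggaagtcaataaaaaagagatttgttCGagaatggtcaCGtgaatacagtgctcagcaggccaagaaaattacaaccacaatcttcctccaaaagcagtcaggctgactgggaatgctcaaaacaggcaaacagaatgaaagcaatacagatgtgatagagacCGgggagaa
Abca8b: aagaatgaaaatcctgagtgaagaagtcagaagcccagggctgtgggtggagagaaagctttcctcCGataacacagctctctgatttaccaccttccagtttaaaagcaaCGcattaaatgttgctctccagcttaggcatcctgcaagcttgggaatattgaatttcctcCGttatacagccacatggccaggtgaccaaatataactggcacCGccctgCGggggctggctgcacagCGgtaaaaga
Abca1: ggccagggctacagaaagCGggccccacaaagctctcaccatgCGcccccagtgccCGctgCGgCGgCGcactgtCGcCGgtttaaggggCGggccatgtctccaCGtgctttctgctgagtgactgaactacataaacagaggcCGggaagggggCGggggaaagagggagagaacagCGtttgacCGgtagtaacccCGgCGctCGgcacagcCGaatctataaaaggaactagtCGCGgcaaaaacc

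The window of Abcb1a held 0 CG pairs and that of Abcb1b 9, against a median of 6 over 32851 RefSeq windows. Abca8a had 4, Abca8b 6 and Abca1 20, more than 82.1% of all windows. On both strands, TATAAA was found once before Abca1 and in none of the other windows shown, and 12.4% of all windows hold it. The GC box GGGCGG, which itself contains a CG pair, was found at 2 places before Abca1 and at 1 place each before Abcb1b and Abca8b (32.7% of all windows). The E-box CACGTG was found at 1 place each before Abca1 and Abca8a (6.0% of all windows), and CCAAT at 2 places before Abcb1b (33.8%). Aligned end to end, the windows were 49.3% identical for Abcb1a and Abcb1b and 47.2% for Abca8a and Abca8b, close to the 43.0% of the unrelated windows of Abca1 and Abcb1a. A promoter window was given for 33 of the 42 members (78.6%), too few for a summary over the family, so none is drawn.

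Most of the family lay above background. With no control tissue, each array's limit was the 95th percentile of 951 receptor probe sets (olfactory, vomeronasal or trace amine), most of whose genes serve the nose. The limits were 6.86, 6.71 and 6.69 on the log2 intensity scale for mice 1 to 3. Above the limit on every array were 31 of 42 members, or 73.8%, where 74.7% of all genes were, so the share in the family was about that of all genes. The median level over the members was 8.92, and over all genes 8.90. A probe's own brightness enters each level, so no member is ranked against another, and a level of this kind is a statement about 1 gene and its limit.

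By subfamily, 8 of 14 A genes, 6 of 7 B genes, 6 of 8 C genes and 4 of 6 G genes were above the limit, as were all 3 D genes, the single E gene and all 3 F genes. Of these, 26 exceeded the limit by at least 1 log2 unit on every array, as did 62.8% of all genes. Abca4, Abcc3 and Abcc6 came within 0.5 of it on at least 1 array. Of the 11 remaining genes, 7 were above the limit on no array and 4 on 1 or 2 arrays.

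**Figure D1:**
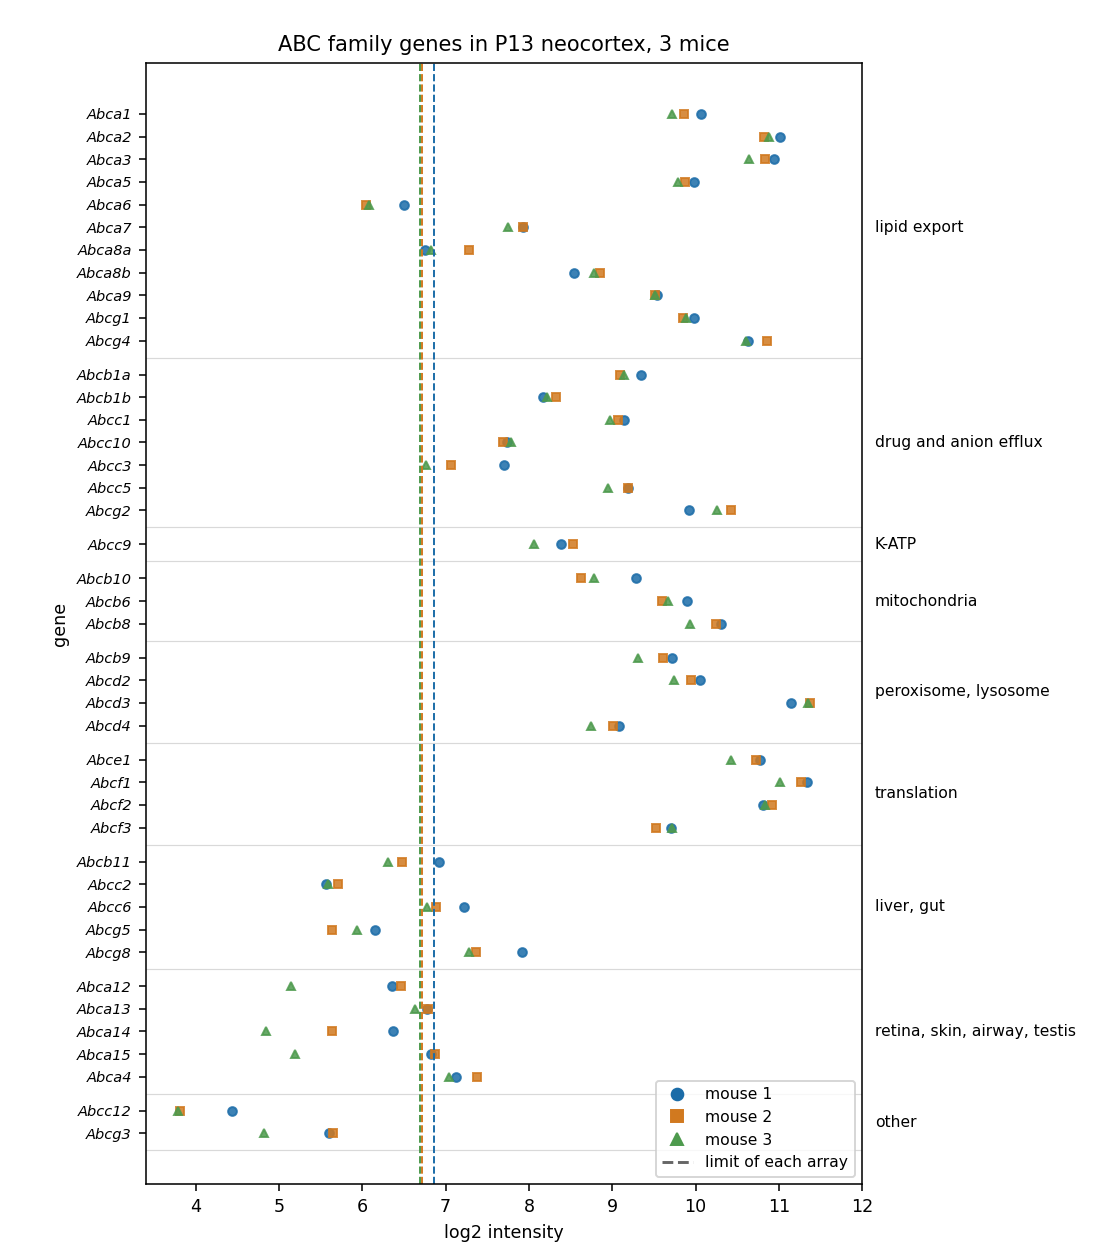
Log2 intensity (horizontal axis) of each of the 42 ABC genes in each of 3 mice (1 point per mouse), grouped by role, with the background limit of each array as a dashed line. The genes of the peroxisome, mitochondria and translation groups lie to the right of the limits in every mouse, and most genes of the liver and testis groups lie at or left of them.

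Marker genes of cell types in brain, of its coverings and of liver were read against the same limits. The lists were chosen with earlier results of these data known and name no other brain region. They therefore cannot tell neocortex from other brain tissue. All 30 measured markers of 8 lists (neurons, astrocytes, oligodendrocytes, microglia, endothelium, pericytes with smooth muscle, meninges and choroid plexus) were above the limit in every mouse. The share over all genes was 74.7%. Of 3 measured liver genes none was above it on every array, and albumin (Alb, 6.69 ± 0.25) passed it in mouse 1. Markers of meninges and of choroid plexus, tissues next to the cortex, are thus among those measured, and their part in the levels below was not tested. The RNA came from whole tissue, in which fewer cells of a type and less RNA per cell cannot be told apart. All values are log2 intensities, with the SD between mice (n = 3) after ±.

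Of 11 genes listed as exporters of cholesterol and other lipids, 9 were above the limit, where 74.7% of all genes were. The sterol pair Abcg5 and Abcg8 and the skin lipid carrier Abca12 were listed under other tissues. Abca1, which loads cholesterol and phospholipid onto lipid-poor apolipoproteins, was at 10.06, 9.86 and 9.72 in mice 1 to 3 (9.88 ± 0.17). Abcg1, which passes cholesterol on to formed particles, was at 9.99, 9.85 and 9.89 (9.91 ± 0.07). Abcg4, its close relative found mainly in the nervous system, was at 10.63, 10.85 and 10.60 (10.69 ± 0.14). All 3 exporters stood about 3 or more log2 units over the limit of their array, the smallest distance being 3.03 for Abca1 in mouse 3. Mouse 1 was highest for Abca1 and mouse 2 for Abcg4.

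Abca2, a lipid transporter of endosomes and lysosomes known from oligodendrocytes, was at 11.01, 10.82 and 10.88 (10.90 ± 0.10). Abca3, which fills lamellar bodies with surfactant lipid in lung, was at 10.94, 10.83 and 10.63 (10.80 ± 0.15). Neither of them came within 3.9 log2 units of its limit, and mouse 1 was highest for both. Abca7, a phospholipid transporter whose human gene is linked to Alzheimer's disease risk, was nearer to the limit at 7.93, 7.93 and 7.75 (7.87 ± 0.11), between 1.06 and 1.22 above it.

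Abca5, Abca6, Abca8a, Abca8b and Abca9 are 5 successive protein-coding genes on chromosome 11, and the arrays read them differently. Abca5, a lysosomal lipid transporter, was at 9.97, 9.87 and 9.78 (9.87 ± 0.10). Abca9 was at 9.53, 9.51 and 9.51, with an SD of 0.01, the smallest of the 31 members above the limit as deposited. After quantile normalization its SD was 0.09 and that of Abca7 was the smallest, at 0.04. Abca8b was at 8.53, 8.85 and 8.78 (8.72 ± 0.16), lowest in mouse 1. Its neighbour Abca8a straddled the limit, with 6.75 in mouse 1, below it, and 7.28 and 6.82 in mice 2 and 3, above it (6.95 ± 0.29). Abca6 was below the limit in every mouse at 6.51, 6.05 and 6.09 (6.21 ± 0.25). Whether probes of one of these close relatives, or of Abcb1a and Abcb1b, also read the other was not tested.

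Of 10 measured partners of cholesterol handling, 9 were above the limit, where 74.7% of all genes were. Apoe, the main apolipoprotein that accepts lipid in brain, was at 13.64 ± 0.13, Srebf2, which drives cholesterol synthesis genes, at 11.66 ± 0.13, and Cyp46a1, the neuronal enzyme that hydroxylates cholesterol for export, at 11.24 ± 0.02. Lcat, which esterifies the exported cholesterol, was at 9.88, 10.47 and 10.31 in mice 1 to 3. Nr1h3, a liver X receptor that induces Abca1 and Abcg1, passed the limit in mice 1 and 2 and missed it in mouse 3 (6.98, 7.15 and 6.52). Among the 9 partners mouse 1 was lowest for 6 and highest for 2, where it was lowest for 53.5% and highest for 25.5% of all genes above the limit. After quantile normalization it was lowest for 3 of the 9 and highest for 4, against 41.2% and 40.2% of all genes. Among the 9 lipid exporters above the limit mouse 1 was highest for 7 as deposited and after quantile normalization. It was highest for 7 after cyclic loess too (39.4% of all genes) and for 5 with each array centred on its median (23.4%).

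The 7 genes listed as pumps for drugs and organic anions were all above the limit, as were 74.7% of all genes. Abcc2, also an anion pump, was listed with the liver genes and was above the limit on no array. Abcb1a, the P-glycoprotein gene of mouse brain capillaries, was at 9.34, 9.09 and 9.14 (9.19 ± 0.13). Abcb1b, the other P-glycoprotein gene, was at 8.16, 8.32 and 8.22 (8.23 ± 0.08). Mouse 1 was highest for Abcb1a and lowest for Abcb1b. Abcg2, the breast cancer resistance protein, which shares the capillary membrane with P-glycoprotein, was at 9.93, 10.42 and 10.26 (10.20 ± 0.25), lowest in mouse 1 by 0.34 or more.

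The multidrug resistance-associated genes followed. Abcc1, an exporter of glutathione conjugates, was at 9.14, 9.07 and 8.98 (9.06 ± 0.08), and Abcc5, which exports cyclic nucleotides, at 9.18, 9.19 and 8.95 (9.11 ± 0.13). Abcc10 was at 7.73, 7.69 and 7.79 (7.73 ± 0.05). Abcc3, an organic anion pump of the liver's sinusoidal membrane, was at 7.70, 7.07 and 6.76 (7.18 ± 0.48), only 0.07 above the limit in mouse 3. It was below the limit when that was set from the 809 receptor probe sets that name a single gene, a choice made after its value was seen.

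Abcc9, the SUR2 regulatory subunit of ATP-sensitive potassium channels, was at 8.38, 8.53 and 8.06 (8.32 ± 0.24). Its pore partners were above the limit too, Kcnj8 at 8.68, 8.89 and 8.74 and Kcnj11 at 8.08, 8.53 and 8.16. For all 3 channel genes mouse 2 was highest, as it was for 59.5% of all genes above the limit. Mouse 2 was also highest for each of the 3 after quantile normalization, median centring and cyclic loess (31.4% to 32.1% of all genes).

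Vascular markers on the same arrays give the setting for these pumps. Cldn5, the endothelial tight-junction gene, was at 9.59, 9.70 and 9.61 and Slco1c1, the endothelial thyroxine carrier, at 11.43, 11.61 and 11.45. Pecam1 (9.38, 9.11 and 8.94) and Flt1 (8.81, 8.37 and 8.28), both endothelial as well, were highest in mouse 1, like Abcb1a. Among 4 mural genes, Pdgfrb was highest in mouse 1 (9.74, 9.26 and 9.12), Rgs5 (11.16, 11.55 and 11.07) and Kcnj8 in mouse 2, and Acta2 in mouse 3 and lowest in mouse 1 (9.17 ± 0.15). As deposited, 2 of the 4 endothelial genes were highest in mouse 1 and 2 in mouse 2 (25.5% and 59.5% of all genes). After quantile normalization or cyclic loess all 4 were highest in mouse 1 (40.2% and 39.4% of all genes). With each array centred on its median 2 of the 4 were (23.4%), and Cldn5 and Slco1c1 were lowest in mouse 1. Over the same scalings Abcb1a was highest, and Abcb1b and Abcg2 lowest, in mouse 1, and the difference between these genes was not tested. The part of endothelial content in the pump levels was not tested.

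Of 4 measured nuclear receptors and stress regulators that are known to induce efflux pumps, 3 were above the limit. Nr1i3, also called CAR, was at 7.14 ± 0.33, Ahr at 9.04, 8.90 and 8.90 and Nfe2l2 at 10.11, 10.25 and 10.26. Nr1i2, the pregnane X receptor, was above it on no array (5.67, 5.31 and 4.90).

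**Figure D2:**
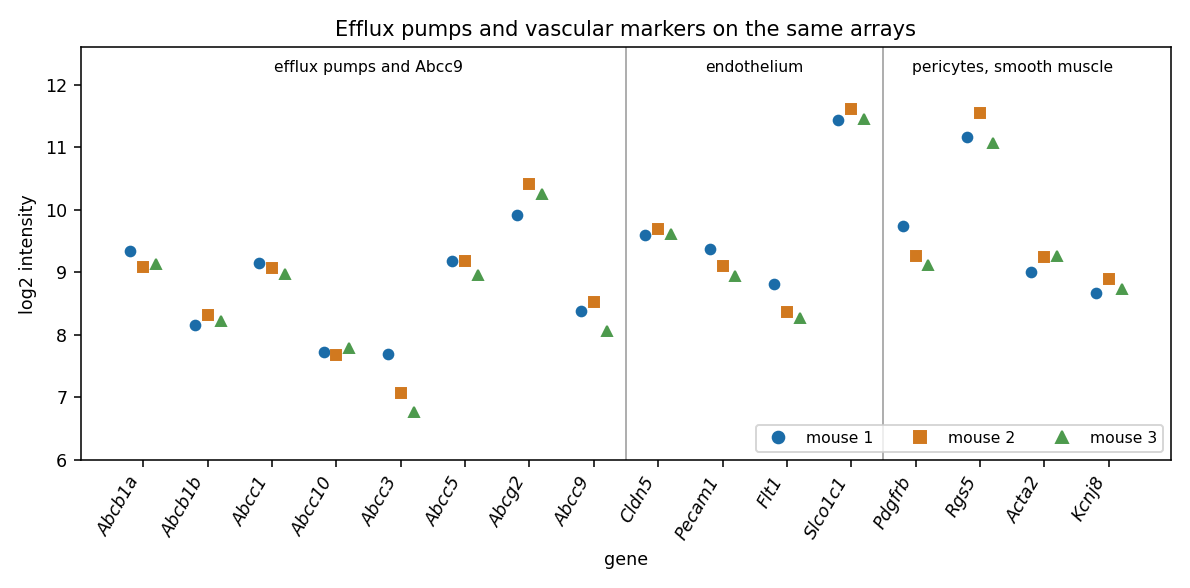
Log2 intensity (vertical axis) of 7 efflux pumps and Abcc9, of 4 endothelial markers and of 4 markers of pericytes and smooth muscle, 1 point per mouse. Mouse 1 is the highest point for Abcb1a, Abcc1, Abcc3, Pecam1, Flt1 and Pdgfrb and the lowest for Abcb1b, Abcg2, Cldn5, Slco1c1, Acta2 and Kcnj8.

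The 3 mitochondrial ABC genes and the 4 of peroxisomes and lysosomes were all above the limit, as were 74.7% of all genes. Of the mitochondrial ones, Abcb6, a porphyrin transporter, was at 9.89, 9.60 and 9.67 (9.72 ± 0.15). Abcb8, of the inner membrane, was at 10.30, 10.25 and 9.94 (10.16 ± 0.20). Abcb10, an inner membrane protein needed for haem synthesis in red cell precursors, was at 9.28, 8.63 and 8.78 (8.90 ± 0.34). Mouse 1 was highest for all 3 of them as deposited (25.5% of all genes above the limit). It was so after quantile normalization (40.2%), median centring (23.4%) and cyclic loess (39.4%) too. The 3 are among 18 members of the family for which this held.

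Abcd2 and Abcd3 are half-transporters that bring fatty acids into peroxisomes. Abcd2 was at 10.05, 9.95 and 9.73 (9.91 ± 0.16), with mouse 1 highest and mouse 3 lowest. Abcd3, an abundant protein of the peroxisome membrane also called PMP70, had the opposite end in mouse 1, at 11.14, 11.38 and 11.35 (11.29 ± 0.13). All 6 measured peroxisome partners were above the limit (74.7% of all genes). Pex3, which with Pex19 inserts such membrane proteins, was at 9.90, 10.76 and 10.50, and Pex19 at 11.53, 11.38 and 11.38. Mouse 1 was lowest for Abcd3 and Pex3 and highest for Abcd2 and Pex19, as deposited and in all 3 rescalings. It was lowest throughout for Pex13 too, and the order of the mice for Pex5, Pex14 and Hsd17b4 changed with the scaling. Among the 6 partners mouse 1 was lowest for 3 and highest for 2 as deposited (53.5% and 25.5% of all genes above the limit). After quantile normalization it was lowest for 2 and highest for 2 (41.2% and 40.2%).

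Abcd4, which despite its name works in lysosomes to release vitamin B12, was at 9.08, 9.01 and 8.75 (8.95 ± 0.17). Lmbrd1, which acts with it, was at 10.85, 11.27 and 11.17, and the 4 measured vitamin B12 partners were all above the limit (74.7% of all genes). All 4 were lowest in mouse 1 as deposited (53.5% of all genes above the limit) and 3 of them, all but Mmut, after quantile normalization (41.2%). Abcd4 was highest in mouse 1 in each of these scalings. Abcb9, a lysosomal peptide transporter, was at 9.72, 9.61 and 9.30 (9.54 ± 0.22). Its relatives of antigen processing carry other names. Tap1 was above the limit at 7.74 ± 0.18, whereas Tap2 (6.35 ± 0.22), with which it forms the peptide transporter, and the chloride channel Cftr (5.82 ± 0.41), also an ABC gene, were above it on no array.

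The 4 members that act on ribosomes were above the limit, as were 74.7% of all genes, each by 2.8 log2 units or more. Abce1, which splits ribosomes after termination, was at 10.77, 10.73 and 10.43 (10.64 ± 0.19). Abcf1, which takes part in translation initiation, was at 11.34, 11.26 and 11.01 (11.20 ± 0.17). Both were highest in mouse 1 and lowest in mouse 3. Abcf2 was at 10.81, 10.92 and 10.84 (10.85 ± 0.06) and Abcf3 at 9.71, 9.52 and 9.71 (9.65 ± 0.11). Of their partners Hbs1l, a rescue factor that prepares stalled ribosomes for Abce1, was at 11.33 ± 0.08, and Gcn1, which in yeast binds an ABCF protein during amino acid starvation, at 9.93, 9.48 and 9.42.

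Members known from liver, gut, retina, skin, airway and testis made up most of those under the limit. Of 5 liver and gut genes 2 were above it, where 74.7% of all genes were. Abcg5 and Abcg8, neighbours on chromosome 17 whose products work only as a pair in sterol excretion, differed in this respect. Abcg8 was at 7.92, 7.36 and 7.28 (7.52 ± 0.35), above the limit in every mouse, and Abcg5 at 6.15, 5.64 and 5.94 (5.91 ± 0.26), below it in every mouse. Abcc6, a liver gene that protects soft tissue from calcification, was above it by little, at 7.22, 6.89 and 6.77. Abcb11, the bile salt export pump, passed the limit in mouse 1 alone (6.92, 6.48 and 6.31), and Abcc2, the canalicular anion pump, in none (5.62 ± 0.07).

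Abca4, the retinoid flippase of photoreceptors, was at 7.12, 7.37 and 7.05 (7.18 ± 0.17), above the limit by 0.26 to 0.66. Abca12, which carries lipid for the skin barrier, was below it at 6.35, 6.46 and 5.15. Abca13 (6.77, 6.79 and 6.64) and Abca15 (6.83, 6.87 and 5.19) passed it in mouse 2 alone. Abca14, next to Abca15 on chromosome 7, was below it in every mouse (6.37, 5.64 and 4.85), and so were Abcc12 (4.01 ± 0.37) and Abcg3 (5.36 ± 0.47). Below the limit, values differ widely on the log2 scale for small differences in intensity, so the order of the mice there is not read. For Abcg8, Abcc6 and Abca4 the distance to the limit was under 1 log2 unit in at least 1 mouse, and 31 of the 951 receptor probe sets passed it as well.

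The spread between the animals was small. As deposited, the median SD over the 31 members above the limit was 0.15, against 0.16 over all 11066 genes above it. The median ratio of the highest to the lowest mouse was 1.23-fold, against 1.24-fold. The SD was under 0.2 for 24 of the 31 (64.3% of all genes above the limit). The 5 largest belonged to Abcc3 (0.48, a 1.92-fold range), Abcg8 (0.35, 1.56-fold), Abcb10 (0.34, 1.58-fold), Abcg2 (0.25, 1.41-fold) and Abcc9 (0.24, 1.39-fold). Mouse 1 was highest for Abcc3, Abcg8 and Abcb10, lowest for Abcg2, and between the others for Abcc9. Without mouse 1 the SD was 0.22 for Abcc3, 0.06 for Abcg8, 0.11 for Abcb10 and 0.11 for Abcg2, and without mouse 3 that of Abcc9 was 0.10. In each case the mouse left out was the one farthest from the gene's mean, so a smaller SD was fixed in advance. Other omissions gave larger or slightly smaller SDs. The smaller ones were 0.45 for Abcc3 without mouse 3, and 0.24 for Abcg2 and 0.23 for Abcc9 without mouse 2. Without mouse 2 the SD was 0.67 for Abcc3 and 0.45 for Abcg8. Without mouse 3 it was 0.46 for Abcb10 and 0.35 for Abcg2, and without mouse 1 it was 0.33 for Abcc9. Abcc3, Abcg8 and Abcb10 had the 3 largest SDs in each rescaling too, whereas after quantile normalization those of Abcg2 (0.16) and Abcc9 (0.17) were below those of Abcb9 and Abcb6 (both 0.24). How the members compared with all genes above the limit depended on the scaling. The median SD was 0.17 against 0.13 after quantile normalization and 0.16 against 0.13 after cyclic loess. With each array centred on its median it was 0.13 against 0.16.

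Each variance was compared, in an upper-tail F test, with the variance that limma's fit gives probe sets of like level. In this F test 0 of the 31 members passed at a Benjamini-Hochberg adjusted p under 0.05, where 0.0652% of 13811 probe sets did. At an unadjusted p under 0.05 there was 1 member, Abcc3, in a background of 5.21%. Its adjusted p was 0.934 in the F test, and that of Abcb10, the next in order, was 0.979. With 3 arrays such a test has little precision, and a p that misses the threshold does not show that the animals were alike.

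**Figure D3:**
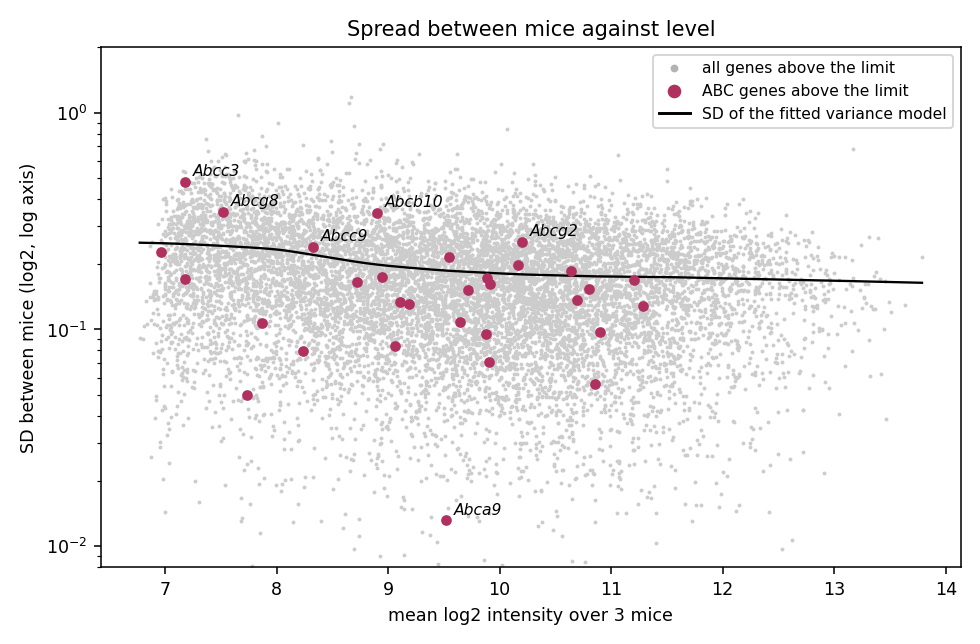
SD between the 3 mice (vertical, log axis) against mean log2 intensity (horizontal) for all genes above the limit in grey and the 31 ABC genes in colour, with the SD of the fitted variance model as a line. Abcc3 at 0.48 and Abca9 at 0.01 are the ends of the family's range, and 8 of the 31 members lie above the line, as do 37.6% of all genes above the limit.

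Many of the small differences ran in the same direction. Mouse 1 was the highest of the animals for 20 of the 31 members, where it was highest for 25.5% of all genes above the limit. It was lowest for 5, namely Abca8b, Abcb1b, Abcd3, Abcf2 and Abcg2, where 53.5% of all genes were lowest in it. Mouse 2 was highest for 9 members (background 59.5%), and mouse 3 was lowest for 18 (34.9%). Against mouse 3 alone, 24 of 31 members were higher in mouse 1 (background 43%), and against mouse 2 alone 22 of 31 (29%).

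In size the shift was modest. The median member deviated from its own mean by 0.10 in mouse 1, 0.04 in mouse 2 and -0.12 in mouse 3. The same medians over all genes above the limit were -0.07, 0.10 and -0.02. The share highest in mouse 1 was spread over the subfamilies, with 6 of 8 A genes, 5 of 6 B genes, 3 of 6 C genes, 2 of 3 D genes, the E gene, 1 of 3 F genes and 2 of 4 G genes.

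**Figure D4:**
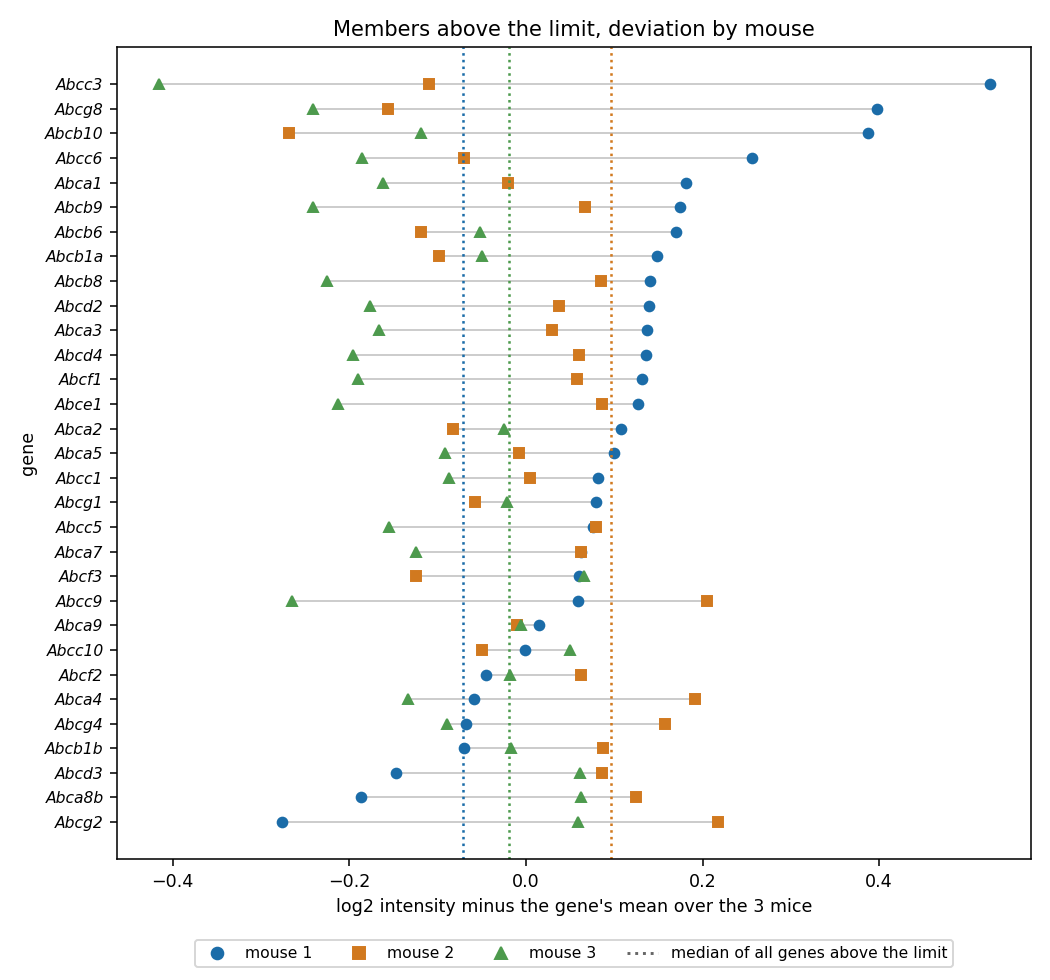
Log2 intensity of each of the 31 ABC genes above the limit minus the gene's mean over the 3 mice (horizontal axis), 1 point per mouse, ordered by the value of mouse 1. Dotted lines give the median deviation of all genes above the limit, which for mouse 1 is -0.07, and most mouse 1 points lie to the right of it.

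The deposited arrays do not share a common distribution, so the counts were repeated after rescaling. Mouse 1 was highest for 23 of 31 members after quantile normalization (background 40.2%), for 23 after cyclic loess, which removes offsets that depend on level (39.4%), and for 19 with each array centred on its median (23.4%). Of the 20 members, 18 kept mouse 1 as the highest in all 3 rescalings, Abca9 and Abcg1 being the exceptions. Of the 5 lowest in mouse 1, all but Abcf2 kept that place. The counts for the other mice did depend on the scaling, with 4 members highest in mouse 2 in place of 9 under each of the 3 (31.4% to 32.1% of all genes), and 11 lowest in mouse 3 in place of 18 under median centring (16.5%). The members share the arrays and are not independent, so the counts describe these 3 animals and no test was made of them. Cell type markers moved with the scaling too, and of the 4 neuronal ones 0 were highest in mouse 1 as deposited and 4 after quantile normalization. The 4 choroid plexus markers were lowest in mouse 1 as deposited and the 4 meningeal ones highest in mouse 2, and the part of these tissues in the order of the animals was not tested.

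**Figure D5:**
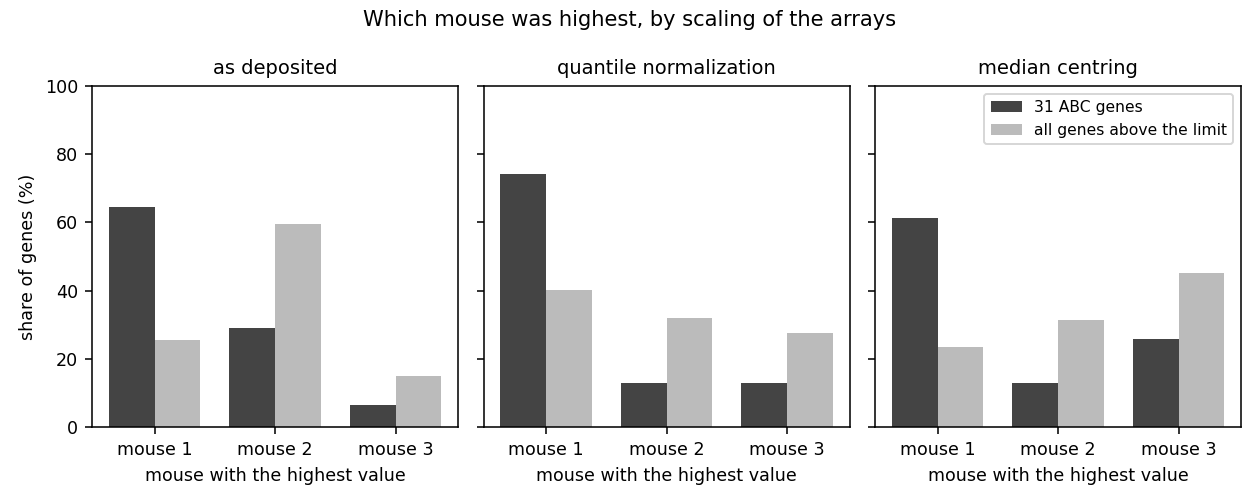
Share of genes (vertical axis, percent) whose highest value fell in each mouse, for the 31 ABC genes in dark bars and all genes above the limit in light bars, with values as deposited, after quantile normalization and after median centring. The dark bar of mouse 1 exceeds the light one in each panel, with 20, 23 and 19 of 31 members.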

How the data were processed

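Total RNA of 3 CD1 neocortices was labelled and each hybridised to an array. The authors deposited 1 linear intensity for every probe set. Per the submitters' processing notes, Affymetrix Power Tools and the mm8 build were used. How background was corrected, arrays normalized and probes summarised is not given in the sources used here. Arrays' median intensities were 248.1, 256.6 and 230.6.

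Log2 of each intensity was taken with no pseudocount, using R 4.3.3. Genes came from the platform annotation: 14938 of 23172 probe sets had 1 symbol, 989 several and 7245 none. All 42 members matched RefSeq by Entrez ID. For the 131 genes with several probe sets the brightest was used, and 2 probe sets naming an ABC gene with another gene were left out. The spread was tested over 13811 probe sets above the limit by the upper tail of F with Benjamini-Hochberg adjustment. The prior was fitted with limma 3.58.1 (fitFDistRobustly, trend on the mean, 21.2 degrees of freedom), and the test was checked on simulated data. Alternatives changed the limit, scaling, pseudocount, probe set rule, variance model and mice used. Every member is named, with values on each array for those with the 5 largest SDs, and other genes come from fixed partner and marker lists. Members and lists were chosen with earlier results of these data known.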

Additional observations from a re-analysis of the deposited data

How the results depend on the processing

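The number of members above the limit was 34 with the limit at the 90th percentile of the receptor probe sets (80.8% of all genes). It was 25 at the 99th (61.2%), where Abca4, Abca7, Abcc3, Abcc6, Abcc10 and Abcg8 fell below it. It was 30, without Abcc3, with the limit from single-gene receptor probe sets, chosen after seeing the data (74% of all genes). With Abca8a it was 32 when the mean over arrays was used (77.8%) or mouse 1 was left out (75.9%). It was 31 in the other settings (74.6% to 76.3%). The count of members past the F test on variance was 0 in every setting run, with 0 or 1 at an unadjusted p under 0.05 and a smallest adjusted p between 0.749 and 0.991. Members highest in mouse 2 numbered 4 after quantile normalization, median centring or cyclic loess (31.4% to 32.1% of all genes above the limit). Members lowest in mouse 3 numbered 11 after median centring (16.5%). Counts with 1 mouse left out were chosen after seeing the data. Without mouse 3, 9 of 31 members were higher in mouse 2 (71% of all genes above the limit). Without mouse 1, 23 were (76.9%). Members lower in mouse 1 numbered 7 without mouse 2 (57%) and 9 without mouse 3 (71%). Among members at least 1 log2 unit above the limit, 17 of 26 were highest in mouse 1 (22.1% of all genes that far above it). No paired analysis was possible because there is a single group.

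Signal over background limits the members near the limit, and 3 arrays limit every SD. Reading by related probes, and the share of each cell type, were not tested.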
